A study of Sus scrofa with 9 samples.

Results

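Transcripts of the glucocorticoid response were followed in boar testis, in 7 genes: TSC22D3, FKBP5, NR3C1, HSD11B1, HSD11B2, SGK1 and PER1. The genes were chosen by symbol, and TSC22D3 was selected on its difference between the t(1;14) boar and the controls in these same arrays, so its values in that comparison are a description and carry no test. The symbols pick out 19 probes of the 60889 on the array, and 18 of the 19 passed the filter on dim signal. The exception was a probe for NR3C1 (start 371), which was not well above background on any of the 9 arrays and is given no difference. Another 4 probes name HSD11B1 or HSD11B2 by accession alone and were left outside the selection.

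The study asked how a balanced reciprocal translocation between chromosomes 1 and 14 goes with gene expression in the testis. RNA of testis biopsies was labelled with cyanine 3 and hybridized to a porcine Agilent array, with 3 arrays in each of 3 groups. The t(1;14) group is a single phenotypically normal Landrace × Duroc crossbred boar (2n=38,XY with the translocation) whose semen had few, poorly motile and malformed sperm, and whose testis showed seminiferous atrophy with interstitial cell hyperplasia. The control group comes from fertile boars of normal 2n=38,XY karyotype and normal semen, and which boar each control array holds is not given in the sources used here. The oligospermic group has a low sperm count and the normal karyotype (2n=38,XY), and the number of boars behind its arrays is not given in the sources used here. No group received a hormone or drug as a treatment, and no ages are given beyond the study's description of the t(1;14) boar as young. The t(1;14) testis was taken by surgical hemi-castration under ketamine and isoflurane. The arrays of a group hold separate biopsies and extractions, so SDs, standard errors and p-values measure the spread between these arrays. For t(1;14) that is a spread within 1 animal, and for the other groups how far it holds differences between animals is not known. Between 37087 and 40632 probes per array were well above background and 52 to 275 were saturated, none of them a probe of the 7 genes. Each of the 3 slides held 1 array of each group.

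Glucocorticoids act through the receptor encoded by NR3C1, which waits in the cytoplasm in a chaperone complex, binds the hormone and moves to the nucleus to switch genes on or off. The enzymes HSD11B1 and HSD11B2 set how much active hormone reaches it: the first regenerates cortisol from inactive cortisone, and the second inactivates cortisol. TSC22D3 (also called GILZ), FKBP5, SGK1 and PER1 are widely used as readouts because the hormone raises their transcripts in many tissues. In the testis, Leydig cells, the steroid-making cells between the tubules, are known from rodents to carry both the receptor and these enzymes.

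The probe letters matter here because several results rest on whether probes of a gene move together. The start is the base of the probe's source transcript at which it begins, as the array files give it. The 2 probes for TSC22D3, a leucine zipper protein that dampens inflammatory signalling, gave different results, and the first 30 bases are shown for the second.

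TSC22D3, start 320: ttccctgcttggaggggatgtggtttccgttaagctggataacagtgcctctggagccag

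TSC22D3, start 1671: cgacaccttatcctgatgttatgtctccag

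Both list 1 cDNA clone in common, and their GC content was 55% and 36.7%. Among the HSD11B1 probes, those that start at 769 and 812 overlap, and capitals mark the 17 bases they share, so they are not separate measurements of that stretch.

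HSD11B1, start 769: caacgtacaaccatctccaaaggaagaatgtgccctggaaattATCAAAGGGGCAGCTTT

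HSD11B1, start 812: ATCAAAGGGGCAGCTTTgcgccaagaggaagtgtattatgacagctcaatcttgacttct

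The 2 probes for HSD11B2 carry the same 60 letters under separate probe names, with starts given as 960 and 0, so they are repeat spots of 1 sequence.

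HSD11B2, start 960 and start 0: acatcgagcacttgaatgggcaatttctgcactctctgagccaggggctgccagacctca

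The last 30 bases of the SGK1 probe hold the polyadenylation signal AATAAA, in capitals, which was found in 11.4% of all 60889 probes as read and in 1 of the 19 probes of these genes.

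SGK1, start 2332, bases 31 to 60: aaaccaacttcggtttgcAATAAAaccttg

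The NR3C1 probes that start at 605 and 3187 are shown because the t(1;14) arrays lay above the controls on these and not on the probe that starts at 2007, and for the one at 3187 the first 30 bases are given.

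NR3C1, start 605: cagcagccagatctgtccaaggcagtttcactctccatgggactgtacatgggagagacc

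NR3C1, start 3187: cagaaaagggaagttgtgccttttatagct

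TSC22D3, which lies on the X chromosome, was higher in the t(1;14) boar on its brighter probe, and most of the other 6 genes differed by less than 1 on the log2 scale. All levels are log2 intensities after quantile normalization over the 9 arrays, and levels of different probes cannot be set against each other. On the probe that starts at 1671, the t(1;14) arrays read 11.14, 11.27 and 11.27, the control arrays 9.17, 9.0 and 9.0, and the oligospermic arrays 8.94, 8.76 and 8.39. The t(1;14) arrays stood above all others, and the oligospermic arrays all lay below the controls. The difference between t(1;14) and control was 2.17 (SE 0.11, n = 3 arrays a group), a 4.5-fold higher signal, and on the 3 slides separately it was 2.10, 2.27 and 2.15. Between t(1;14) and oligospermic it was 2.53 (SE 0.15). Oligospermic and control differed by -0.36 (SE 0.17, 95% interval -0.77 to 0.06), which did not pass the test (adjusted p = 0.577 by limma), so the order of the lower 2 groups is not settled. This last comparison shares the control arrays with the first.

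The second TSC22D3 probe, at start 320, showed no such pattern. Its levels were 4.19, 4.57 and 3.77 in t(1;14), 3.06, 4.88 and 4.57 in controls and 3.02, 4.54 and 4.52 in oligospermic arrays. The groups overlapped, and the probe was well above background on only 2 of 3 arrays in each group. The difference was 0.00 (SE 0.49) between t(1;14) and control and -0.14 (SE 0.60, adjusted p = 0.974) between oligospermic and control. Within slides the first of these was 1.5, -1.11 and -0.38, of either sign. Averaged over both probes, TSC22D3 was higher in t(1;14) by 1.09 (SE 0.24). Among its paralogs, TSC22D2 was the only one with a probe under its symbol and differed by 0.52 (SE 0.16, adjusted p = 0.033), short of both thresholds, while its other probe read as low as -0.24.

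**Figure D1:**
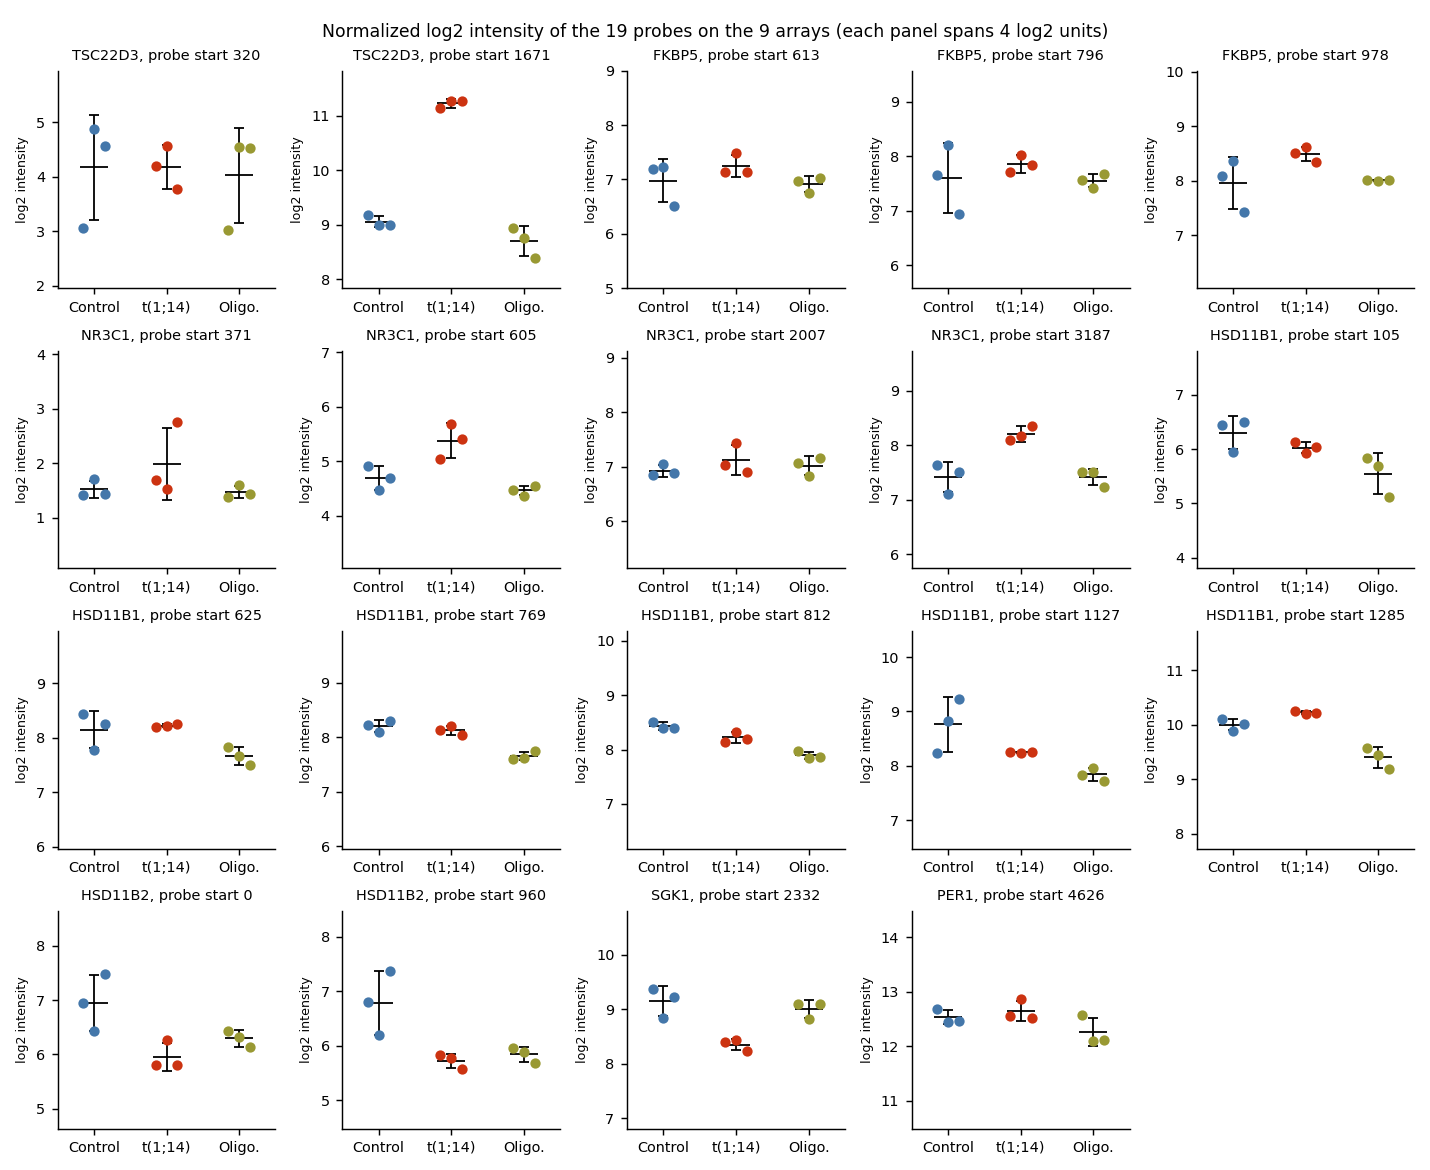
Normalized log2 intensity (y axis) of each of the 19 probes on the 9 arrays, by group (x axis). Points are arrays, black bars are the group mean and SD, and each panel spans 4 log2 units. The t(1;14) arrays of TSC22D3 (start 1671) sit at 11.14 to 11.27, above all control and oligospermic arrays, and the NR3C1 probe at start 371 is not above background.

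A probe was called when its adjusted p was at most 0.01 and its log2 fold change at least 2, the thresholds of the study. Of 40643 probes tested between t(1;14) and control, 1.31% were called higher and 4.3% lower, or 7.45% and 11.7% where a log2 fold change of 1 was enough, and 58.1% had an unadjusted p under 0.05. Groups whose arrays did not overlap were found for 35.8% of all probes in the higher direction and 26.2% in the lower. Among the 18 probes of the 7 genes, the t(1;14) arrays lay wholly above the controls for 4, wholly below for 4, and overlapped them for 10. The 4 above were TSC22D3 (start 1671), NR3C1 (605 and 3187) and HSD11B1 (1285), and the 4 below were both HSD11B2 probes, SGK1 and HSD11B1 (812). Only the TSC22D3 probe exceeded 2, and their median was 0.10 beside 0.14 over all probes tested.

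FKBP5, a co-chaperone that lowers the receptor's grip on hormone and is itself induced by it, did not separate the t(1;14) arrays from the controls. On its brightest probe (start 978) the t(1;14) arrays read 8.51, 8.62 and 8.35, the controls 8.09, 8.36 and 7.43, and the oligospermic arrays 8.01, 7.99 and 8.02. The lowest t(1;14) array lay just under the highest control, and control array 3 was the lowest of all on each of the 3 FKBP5 probes. The differences between t(1;14) and control were 0.53 (SE 0.25), 0.26 (SE 0.32) and 0.27 (SE 0.23) on the probes at 978, 796 and 613. On slide 2 they were 0.00, -0.36 and -0.08. Against the oligospermic arrays all 3 probes were higher without overlap, by 0.48, 0.31 and 0.33, as were 40.7% of all probes. Oligospermic and control differed by 0.05, -0.05 and -0.06, with 95% intervals no wider than -0.80 to 0.70 and adjusted p of 0.979, 0.986 and 0.968.

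NR3C1, the receptor itself, was higher in t(1;14) than in controls without overlap on 2 of its 3 measured probes, as were 35.8% of all probes. On the brightest (start 3187) the t(1;14) arrays read 8.09, 8.17 and 8.36, the controls 7.64, 7.11 and 7.5 and the oligospermic arrays 7.51, 7.5 and 7.24. All t(1;14) arrays were above all others, by 0.79 (SE 0.17) over control and 0.79 (SE 0.12) over oligospermic. A further probe of the same letters, listed without the gene symbol, differed by 0.81 from control. On the dim probe at 605 the t(1;14) levels were 5.05, 5.69 and 5.40 against 4.92, 4.47 and 4.69 in controls, again without overlap and with a difference of 0.68 (SE 0.21), which was 0.20 under another background correction (normexp with an offset of 50). The probe at 2007 differed by 0.20 (SE 0.17), with control arrays at 6.84 to 7.05 inside the t(1;14) range of 6.90 to 7.43. Oligospermic and control overlapped on all 3 probes, at -0.23, 0.09 and 0.00, with adjusted p of 0.722 or more.

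The chaperones and coregulators that hold and serve the receptor were not called on the brightest probe of each gene. On those probes limma called none of 17 tested genes in any comparison, with 11 (beside 58.1% of all probes) at an unadjusted p under 0.05 between t(1;14) and control, where the list's median was -0.26. NCOA3, a coactivator, was at -0.28 (SE 0.14) on its brightest probe, but another of its 4 probes read 4.41, 4.17 and 4.64 in t(1;14) and 6.34, 6.79 and 6.55 in controls, and fell by 2.15 (SE 0.18, adjusted p = 0.00028). On the brightest probes NRIP1, a corepressor, was at -1.14 (SE 0.18, adjusted p = 0.0031), followed by MED1, a Mediator subunit, at -0.83. The FKBP5 paralog FKBP4 and the co-chaperone CDC37 were both at -0.71. HSP90AB1, the chaperone that carries the unbound receptor, was at 14.80 in t(1;14) and 13.87 in oligospermic arrays, a difference of 0.93 (SE 0.15) that stayed below the fold threshold. At an unadjusted p under 0.05 there were 2 of the 17 between oligospermic and control (9.84% of all probes) and 13 between t(1;14) and oligospermic (68.7% of all probes).

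HSD11B1, which makes active hormone, was measured by 6 probes, and in t(1;14) they ranged from -0.51 to 0.22 around the controls. On the brightest (start 1285) the t(1;14) arrays read 10.26, 10.20 and 10.22, the controls 10.10, 9.89 and 10.02 and the oligospermic arrays 9.58, 9.44 and 9.19. The 3 groups did not overlap, in the order t(1;14), control, oligospermic, although the step from control to t(1;14) was only 0.22 (SE 0.11). The probe at 812 ran the other way by -0.21 (SE 0.11), with t(1;14) at 8.14 to 8.33 below controls at 8.39 to 8.51. The 6 probes thus gave differences of both signs in t(1;14).

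HSD11B1 was lower in the oligospermic arrays on all 6 probes, by 0.48 to 0.92 on the log2 scale below control, though none passed the test. The difference was -0.60 (SE 0.15, 95% interval -0.95 to -0.24) at 1285, -0.54 (SE 0.12) at 812, -0.55 (SE 0.12) at 769 and -0.92 (SE 0.26) at 1127. The remaining probes, at 105 and 625, gave -0.75 (SE 0.24) and -0.48 (SE 0.20). Adjusted p by limma lay between 0.198 and 0.507. The oligospermic arrays lay wholly below the controls on 5 of the 6, as on 7.71% of all probes tested, and were lower on every slide for each probe. The 2 further probes that repeat the letters of the one at 1285 gave -0.60 and -0.68. These 6 are probes of 1 gene on the same 6 arrays and are not separate pieces of evidence.

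HSD11B2, which inactivates cortisol, was lower in both other groups than in the controls, on a low signal. The probe at 960 read 6.80, 6.19 and 7.37 in controls, 5.83, 5.77 and 5.58 in t(1;14) and 5.95, 5.89 and 5.68 in oligospermic arrays. The controls spread widely, with array 3 highest and array 2 lowest, and the other 2 groups overlapped each other below them. The difference from control was -1.06 (SE 0.29) in t(1;14) and -0.95 (SE 0.30, 95% interval -1.66 to -0.24, adjusted p = 0.359) in oligospermic arrays. The repeat at start 0 gave -0.99 (SE 0.29) and -0.65 (SE 0.27, adjusted p = 0.505). When single arrays were left out, the oligospermic difference ranged from -1.25 to -0.66 at 960 and from -0.91 to -0.39 at start 0. With 2 further repeats of these letters, spots of the same sequence differed by up to 0.92 within 1 array, and the t(1;14) difference ranged from -1.06 to -0.89. The normexp correction gave -0.51 for the repeat at start 0.

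Other genes of glucocorticoid supply were largely unmeasured, with 5 of 13 tested and 0 called by limma in any comparison. At an unadjusted p under 0.05 there were 3 of the 5 against control and 3 against oligospermic in t(1;14), beside 58.1% and 68.7% of all probes, and 0 between oligospermic and control. CRHR1, a receptor for corticotropin-releasing hormone, was at -1.02 (SE 0.36, adjusted p = 0.054) in t(1;14). SRD5A2, a steroid reductase, was at 0.71 and SERPINA6, the cortisol-binding globulin of plasma, at -0.53, and neither passed.

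SGK1, a kinase that the hormone induces and that keeps sodium channels at the cell surface, was lower in t(1;14), opposite in direction to TSC22D3. The gene lies on chromosome 1, which takes part in the translocation, and the part of that location in the result was not tested. The SGK1 probe read 9.38, 8.84 and 9.22 in controls, 8.40, 8.43 and 8.23 in t(1;14) and 9.10, 8.82 and 9.09 in oligospermic arrays. The t(1;14) arrays lay below all others, and the other 2 groups overlapped. The difference was -0.79 (SE 0.17) from control, -0.95, -0.61 and -0.82 on the 3 slides, and -0.65 (SE 0.12) from oligospermic. A repeat of the same letters gave -0.78. Oligospermic and control differed by -0.14 (SE 0.18, 95% interval -0.58 to 0.29, adjusted p = 0.884). Of 5 tested genes around SGK1, limma called 0 in any comparison, and 4, 0 and 5 had an unadjusted p under 0.05 for t(1;14) against control, oligospermic against control and t(1;14) against oligospermic, beside 58.1%, 9.84% and 68.7% of all probes. SCNN1G, a subunit of the sodium channel that SGK1 acts on, was nearest, at 1.62 (SE 0.61) over control and 1.98 (SE 0.13) over oligospermic. It was called at 2.36 over control without control array 1, and over oligospermic at 2.02 to 2.09 without t(1;14) array 3, without oligospermic array 3 or under 75th percentile scaling. FOXO3 and RICTOR were both at 0.58 over control, and the 3 FOXO3 probes ran from -1.19 to 0.58.

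PER1, a clock gene that the hormone also induces, was bright and did not separate the groups. It read 12.56, 12.87 and 12.52 in t(1;14), 12.69, 12.45 and 12.47 in controls and 12.57, 12.10 and 12.12 in oligospermic arrays. All 3 groups overlapped. The difference was 0.11 (SE 0.15) between t(1;14) and control and -0.28 (SE 0.17, 95% interval -0.69 to 0.14, adjusted p = 0.701) between oligospermic and control. Of 7 other clock genes tested, limma called 0 in any comparison, although 1 was called against control without control array 1 and against oligospermic without oligospermic array 1, with slide as a block or with an intensity trend. At an unadjusted p under 0.05 there were 4 of the 7 in each comparison that holds t(1;14), beside 58.1% and 68.7% of all probes, and 0 between oligospermic and control. RORA, a nuclear receptor that drives the clock's BMAL1 gene, was at -1.64 (SE 0.17, adjusted p = 0.0006) in t(1;14) against control, and BHLHE41, a repressor in the clock, was at 0.98.

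**Figure D2:**
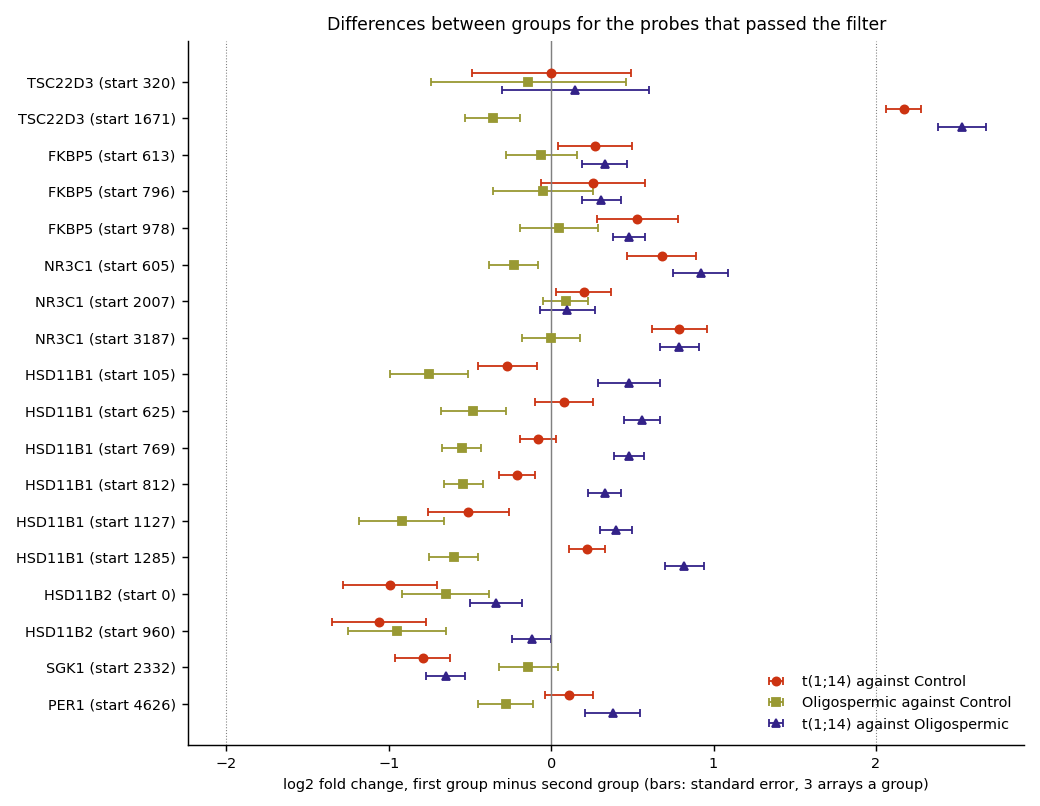
log2 fold change (x axis, first group minus second) of each of the 18 probes that passed the filter (y axis) in the 3 comparisons. Points are limma estimates and bars their standard errors, with 3 arrays a group, and dotted lines mark 2 and -2. Only TSC22D3 (start 1671) passes 2, at 2.17 against control and 2.53 against oligospermic, and the 6 HSD11B1 probes lie between -0.92 and -0.48 for oligospermic against control.

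Between oligospermic and control, 39713 probes were tested, 0.0453% were called higher and 0.0277% lower, and the arrays did not overlap for 8.02% in the higher and 7.71% in the lower direction. Of the 18 probes, 0 were called by limma and 8 had an unadjusted p under 0.05, beside 9.84% of all probes, the 6 of HSD11B1 and the 2 of HSD11B2. The oligospermic arrays lay wholly below the controls for 7 probes, 5 of them for HSD11B1, and wholly above for 0. Between t(1;14) and oligospermic, 1.93% of 40567 probes were called higher and 4.89% lower, 11.1% and 13.8% at a log2 fold change of at least 1, and groups did not overlap for 40.7% and 30.2%. There the t(1;14) arrays lay wholly above for 12 of the 18 and wholly below for 1, SGK1. The 3 comparisons share arrays in pairs and are not independent of each other.

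Other genes that glucocorticoids raise in many tissues were called in either direction in t(1;14). Of 53 listed, 39 had a probe under their symbol and 35 were tested, and 1 was called higher and 2 lower, beside 1.31% and 4.3% of all probes. The 1 called higher was TNFAIP3, which entered the test through the t(1;14) arrays alone. At a log2 fold change of at least 1 the counts were 6 higher and 4 lower, beside 7.45% and 11.7%. The list's median was 0.46 beside 0.14 over all probes. The genes without a tested probe include DUSP1 and ZBTB16, which are among the best known of these targets. TNFAIP3, an inhibitor of NF-kappa-B signalling, was at 5.46, 5.95 and 5.64 in t(1;14) and at 3.97, 3.57 and 3.37 in controls, where 1 of 3 arrays was well above background. It passed the filter through the t(1;14) arrays alone and was not tested where both groups had to be above background, so its difference of 2.05 (SE 0.21) is a description and is given no p. It was 0.61 under the normexp correction, and 1.92 without control array 3 and 1.91 without t(1;14) array 2, short of the fold threshold. Against the oligospermic arrays, none of which was well above background, TNFAIP3 was at least 3.97-fold higher. It again passed the filter through the t(1;14) arrays alone, so no p is given. The limit holds for the main background subtraction, since the log2 difference of 2.60 was 0.67 and not called under normexp.

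LPIN1 and GLUL were the genes called lower. LPIN1, which makes diacylglycerol for fat synthesis and also acts as a coactivator, read 6.95, 6.43 and 6.23 in t(1;14) and 9.15, 9.85 and 9.28 in controls on its brightest probe. The t(1;14) arrays lay far below, by -2.89 (SE 0.26, adjusted p = 0.00038), and 3 of its 6 probes fell while the highest stood at 0.60. GLUL, glutamine synthetase, read 12.11, 12.19 and 12.01 in t(1;14) and 14.16, 14.36 and 14.21 in controls, without overlap and with a difference of -2.14 (SE 0.12, adjusted p = 0.00012). Of its 5 probes, 4 fell, and the remaining one stood at 0.93.

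Just short of the fold threshold stood CDKN1C at -1.75 (SE 0.19), a cell cycle inhibitor, MAOA at -1.62 (SE 0.16), which breaks down amines, and CDKN1A at 1.55 (SE 0.15), another cell cycle inhibitor. NFKBIA, which holds NF-kappa-B in the cytoplasm, was at 1.17 (SE 0.13) and TXNIP, which binds thioredoxin, at 1.42 (SE 0.28). Probes of 1 gene did not always run together here either, since those of CEBPD ranged from -0.39 to 1.52 and those of KLF9 from -1.85 to -0.07. TXNIP was at 12.66, 13.18 and 12.91 in t(1;14) and at 11.07, 10.79 and 10.61 in oligospermic arrays, and rose by 2.09 (SE 0.18, adjusted p = 0.00014) between them. That call was lost with values of 1.90 to 1.98 under 75th percentile scaling, under normexp, without t(1;14) array 2 and without oligospermic array 3.

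None of the 34 induced genes tested between oligospermic and control was called by limma. At an unadjusted p under 0.05 there were 2, beside 9.84% of all probes, TXNIP at -0.67 (SE 0.28) and ANXA1, an anti-inflammatory phospholipid-binding protein, at -0.36. The list's median was -0.05. Between t(1;14) and oligospermic 2 of 35 were called higher and 2 lower, LPIN1 and GLUL again, beside 1.93% and 4.89% of all probes. The 2 higher were TXNIP and TNFAIP3, and TNFAIP3 passed the filter through t(1;14) alone. At a log2 fold change of at least 1 there were 7 higher and 4 lower, beside 11.1% and 13.8%.

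**Figure D3:**
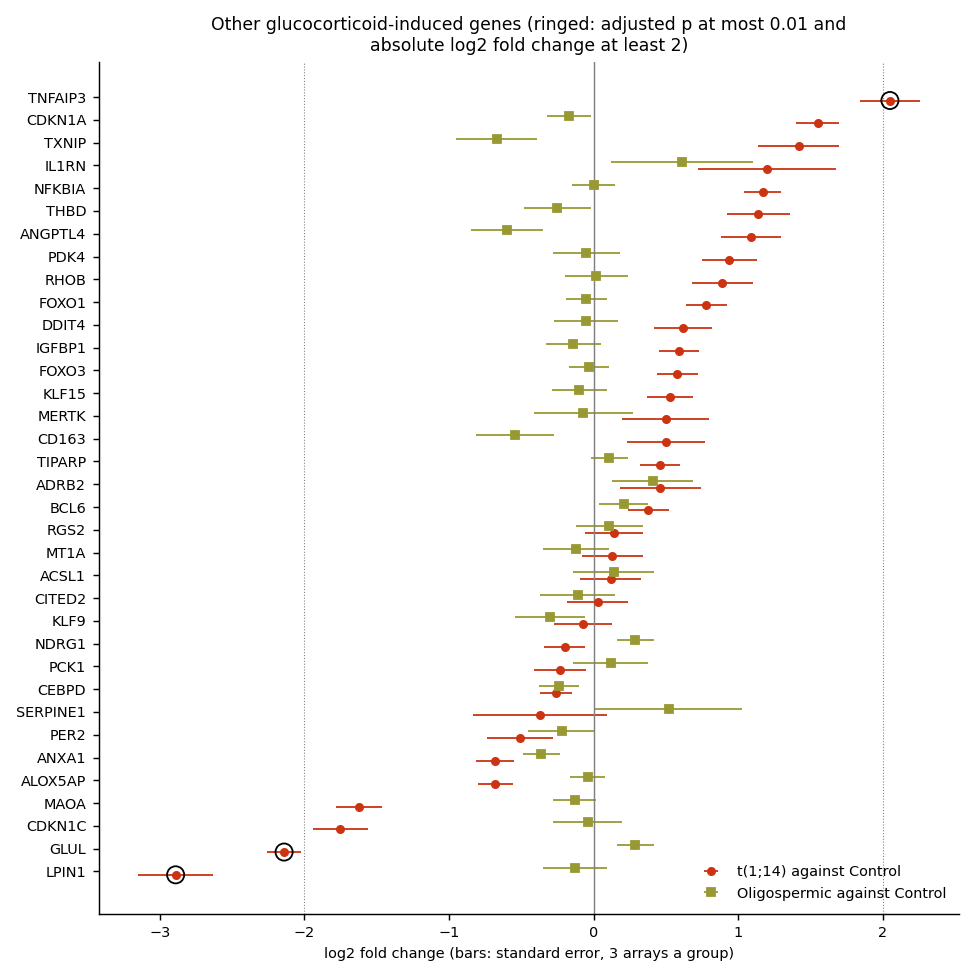
log2 fold change (x axis) of 35 other glucocorticoid-induced genes (y axis), 1 probe a gene, for t(1;14) against control and oligospermic against control. Points are limma estimates, bars are standard errors with 3 arrays a group, dotted lines mark 2 and -2, and rings mark called genes. The t(1;14) values run from -2.89 (LPIN1) to 2.05 (TNFAIP3) and the oligospermic values from -0.67 to 0.61.

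Transcripts that glucocorticoids lower in inflammation were mostly dim, with 8 of 16 tested. Of these, limma called 1 higher and 0 lower in t(1;14) against control, beside 1.31% and 4.3% of all probes. At an unadjusted p under 0.05 there were 3, beside 58.1%. VCAM1, an adhesion molecule for leukocytes, rose in t(1;14) from 8.07, 8.72 and 8.65 to 10.38, 10.60 and 10.72, by 2.09 (SE 0.21, adjusted p = 0.00054). The call was lost at 1.90 under normexp and at 1.88 without control array 1. Against oligospermic, VCAM1 stayed called under every alternative run, at 2.06 to 2.46. IL1B, an inflammatory cytokine, was at -1.77 (SE 0.15) on its brighter probe and -0.19 on the other, and the chemokine CCL2 at 1.08 (SE 0.25, adjusted p = 0.013). None of the 8 was called between oligospermic and control, and 0 had an unadjusted p under 0.05, beside 9.84% of all probes.

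Genes that handling or lack of blood flow raises within minutes were examined because tissue sampling can raise them. FOS, the best known of these, read 8.28, 8.16 and 8.24 in t(1;14), 5.39, 4.63 and 9.63 in controls and 3.89, 3.42 and 4.51 in oligospermic arrays, where 1 of 3 was well above background. Control array 3 stood above all others, and t(1;14) and control differed by 1.68 (SE 1.24, adjusted p = 0.30), or by 3.22 (adjusted p = 0.0009) without that array, which was called. Between t(1;14) and oligospermic the FOS difference was 4.28 (SE 0.26), or 2.23 under normexp. The probe passed the filter there through the t(1;14) arrays alone and was not tested where both groups had to be above background, so the size rests on a dim group and no p is given. Among the other 3 tested, JUN was at 0.16 and IER3 at -1.0 in t(1;14) against control. MYC was at least 1.5-fold higher in t(1;14) than in the oligospermic arrays, none of which was well above background for it. It too passed the filter through t(1;14) alone, and no p is given. The part of sampling in the results was not tested.

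All 6 measured Leydig cell markers were higher in t(1;14) than in controls, as TSC22D3 was on its brighter probe. Of the 6, 4 were called higher, beside 1.31% of all probes. INSL3 was saturated on 3 of the 9 arrays, and over the other 5 the median was 2.57, beside 0.14 over all probes, and the mean level 12.40 to 12.65 on the t(1;14) arrays, 10.04 to 10.35 on the controls and 10.20 to 10.66 on the oligospermic arrays. STAR, which brings cholesterol into mitochondria, read 14.73, 14.87 and 14.89 in t(1;14) and 10.95, 11.67 and 10.72 in controls and rose by 3.72 (SE 0.25, adjusted p = 0.00016). LHCGR, CYP11A1 and CYP17A1 rose by 2.73, 2.57 and 2.31, and INSL3 and HSD3B1 were not called. Between oligospermic and control the median over the 5 was 0.41, with LHCGR at 0.94 and CYP11A1 at -0.38, where TSC22D3 was at -0.36. Of 5 spermatid markers, limma called 2 lower in t(1;14) against control, beside 4.3% of all probes. They were ODF1 at -2.52 and ACRV1 at -2.4. The mean level over these 2 was 10.95 to 11.01 in t(1;14), 13.41 to 13.48 in controls and 13.44 to 13.53 in oligospermic arrays. The other spermatid probes, for PRM1, PRM2 and TNP2, were saturated on 9, 6 and 4 of the 9 arrays, so no size is given for their differences. None of the 7 Sertoli markers was called, with WT1 at -1.43, INHA at 1.06 and FSHR at -0.67, and 3 had an unadjusted p under 0.05, beside 58.1% of all probes. Between oligospermic and control limma called 0 markers of any list. In whole testis RNA, a change in the number of cells of a type and a change in RNA per cell cannot be told apart, and the part of these markers in the TSC22D3 result was not tested.

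Immune, vascular and earlier germ cell markers were measured by few probes. CD14, of monocytes and macrophages, was the only one of 6 immune markers tested and was at 1.30 (SE 0.23, adjusted p = 0.005), with 6.07 to 6.34 in t(1;14) and 4.38 to 5.23 in controls. PECAM1, CDH5 and VWF, of endothelium, were at 1.41, 0.99 and 0.91, while ACTA2 and DES, of the muscle-like cells around tubules and vessels, were at -0.21 and -0.31. KIT, UCHL1 and ID4, of spermatogonia, were at 0.83, 0.87 and 0.51, and SPO11 and PIWIL1, of spermatocytes, at -1.03 and 0.19. The second SPO11 probe stood at 0.73. In oligospermic arrays SPO11 was at -2.14 (SE 0.23, adjusted p = 0.036) and PIWIL1 at 0.11, and SPO11 was called (adjusted p = 0.0028) where all 9 arrays shared 1 model.

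**Figure D4:**
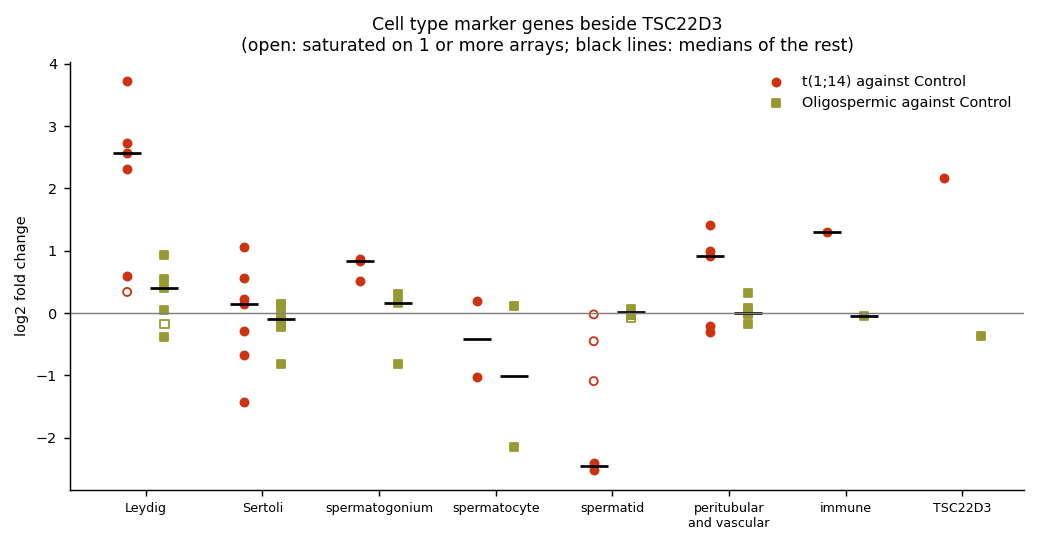
log2 fold change (y axis) of cell type marker genes, 1 point a gene, for t(1;14) against control and oligospermic against control, beside TSC22D3 (start 1671). Open symbols are genes whose probe was saturated on 1 or more arrays, and black lines are medians of the other genes. In t(1;14) these medians are 2.57 for 5 Leydig markers and -2.46 for 2 spermatid markers, and TSC22D3 is at 2.17.

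The genes whose profile was most like that of TSC22D3 were sought among 5566 genes with a symbol, by the root mean square difference over the 9 arrays after each probe was centred on its own mean. The closest was PLP2, a membrane protein also encoded on the X chromosome, at 0.0768. It read 10.41, 10.48 and 10.42 in t(1;14), 8.33, 8.32 and 8.33 in controls and 8.16, 7.93 and 7.76 in oligospermic arrays. The next were GSR, glutathione reductase, at 0.122, LIPA, lysosomal acid lipase, at 0.133, A2M, the protease inhibitor alpha-2-macroglobulin, at 0.16, and PALMD, palmdelphin, at 0.165. These are encoded on chromosomes 15, 14, 5 and 4. Like TSC22D3, all 5 were lowest on oligospermic array 3, at -0.594 to -0.41 relative to their control mean, beside -0.664 for TSC22D3. The likeness is a description over arrays that share groups and slides.

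**Figure D5:**
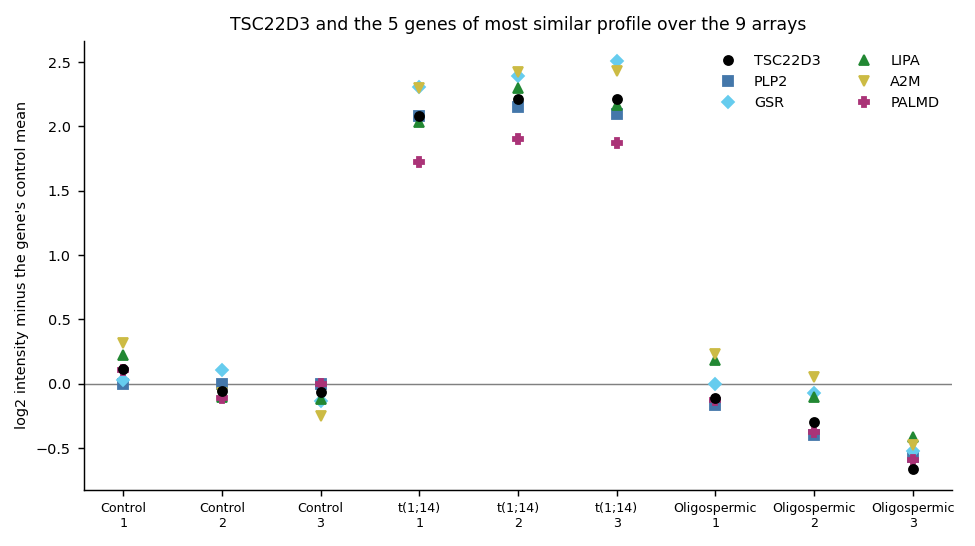
log2 intensity minus the gene's own control mean (y axis) on each of the 9 arrays (x axis) for TSC22D3 (start 1671) and the 5 genes of most similar profile. Points are arrays. All 6 genes lie between 1.72 and 2.51 on the t(1;14) arrays and are lowest on oligospermic array 3.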

How the data were processed

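Testis RNA was labelled with cyanine 3, hybridized to a custom porcine Agilent array, and the spots were read by the authors with Feature Extraction 11.5.1.1. The intensities they deposited had the background subtracted by that software and had not been normalized across arrays. A second deposited table gives log2 values of 38759 probes. At each rank its sorted columns lie within 0.0016 of each other, as quantile normalization leaves them. It holds 17 of the 19 probes described and served as an alternative.

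Processed intensities were put on the log2 scale, then quantile normalized with all 9 arrays together (limma 3.58.1 in R 4.3.3, files read with data.table, version 1.17.8). The filter kept probes that were well above background, and not flagged as outliers, on 2 or more of the 3 arrays in either group compared. A linear model per probe with moderated variances was fitted to the 6 arrays of each comparison, with Benjamini-Hochberg adjustment over all probes that passed. An adjusted p of at most 0.01 together with a log2 fold change of at least 2 made a call, as in the methods. A listed gene was represented by its tested probe of highest mean. Where no array of a group was well above background, the fold is a limit, with the dim group set on each array to its own signal or to the lowest signal well above background, whichever was higher. The number of arrays limits the precision.

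The genes and lists were chosen with earlier results of these data known. All probes of the 7 genes are named, then in each list the called genes (at most 8) or, with fewer than 3 called, the 3 of largest difference, and the 5 genes most like TSC22D3. Other names (HSP90AB1, NCOA3, NFKBIA, CDKN1A, CEBPD, KLF9, MAOA, ANXA1, DUSP1, ZBTB16 and others just short of a call) were added after their values were seen. Symbols come from the array files, and chromosomes from a RefSeq table of Sscrofa11.1, from which no coordinates were taken because the study used an earlier assembly.

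Between oligospermic and control, replicate numbers coincide with slides, and same-numbered arrays deviated from their group means together (r of 0.478, 0.136 and 0.101 over probes), so they pair the arrays. Between t(1;14) and control the values were -0.285, -0.194 and 0.139 and the numbers do not pair them. Arrays of 1 slide did deviate together there (r of 0.339, 0.109 and 0.119), and between t(1;14) and oligospermic (0.489, 0.292 and 0.33), so the slide pairs the arrays in all comparisons. Differences within slides are given for the genes that results turn on. The fit was tested on simulated data: with 200 probes shifted by 3 log2 units, 77.5% were recovered among 40643 for t(1;14) and control, 84% among 39713 for oligospermic and control, and 89% among 40567 for t(1;14) and oligospermic. The alternatives were 75th percentile scaling, normexp with an offset of 50, normalization over 6 arrays, the deposited log2 values, no filter, a filter in both groups, all 9 arrays in 1 model, slide or replicate number as a block, an intensity trend, the mean of a gene's probes, any probe of a gene, a lower fold threshold, and leaving out each array. The study's real-time PCR was not analysed here. The values of 1 listed clock gene are not reported here.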

Additional observations from a re-analysis of the deposited data

How the results depend on the processing

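The TSC22D3 difference between t(1;14) and control of 2.17 was 2.06 under 75th percentile scaling, 2.04 under normexp with an offset of 50 and 1.09 as the mean of its probes, and 2.14 to 2.23 when single arrays were left out. Under the same scalings the median over all probes was 0.16 and 0.07. Between oligospermic and control, TSC22D3 stayed uncalled under every alternative run, at -0.48 to -0.20 when single arrays were left out. The glucocorticoid-induced genes called were 3 for t(1;14) against control, 10 at a log2 fold minimum of 1, and 2 to 3 when single arrays were left out. Against oligospermic they were 4, 2 under normexp, 11 at a fold minimum of 1, and 3 to 4 when single arrays were left out. Between oligospermic and control they were 0 throughout. The counts of 3 and 4 include TNFAIP3, which was not tested where both groups had to be above background.

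With the replicate number as a block, TSC22D3 stood at 2.17 (SE 0.15) against control and at -0.36 (adjusted p = 0.40) for oligospermic against control, the counts were 3, 0 and 4, and no call changed. With the slide as a block, TSC22D3 stood at 2.17 (SE 0.11) and -0.36 (adjusted p = 0.40), the counts were again 3, 0 and 4, and among the other lists the clock count against oligospermic went from 0 to 1. Leaving out single arrays turned the sign of small differences between oligospermic and control: the FKBP5 probe at 978 ranged from -0.22 to 0.25, those at 796 and 613 from -0.38 to 0.26 and from -0.29 to 0.06, and the TSC22D3 probe at 320 from -0.69 to 0.36. Between t(1;14) and control, differences near 0 also turned: the FKBP5 probe at 796 ranged from -0.07 to 0.57, the HSD11B1 probe at 625 from -0.11 to 0.21 and the TSC22D3 probe at 320 from -0.55 to 0.36, while the FKBP5 probe at 978 ranged from 0.27 to 0.73. Dim probes and 3 arrays a group limit what could be seen. Changes of 1.5 on the log2 scale were recovered for 28%, 36.5% and 54% of 200 shifted probes in the 3 simulated comparisons. A log2 fold change of 1 was the minimum for a call there. In the data, 58.1% of probes against control and 68.7% against oligospermic had an unadjusted p under 0.05 in t(1;14). The adjusted p depends on that share, so the simulated rates do not carry over to the t(1;14) comparisons.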
